A study of Mus musculus with 24 samples.

Results

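Fetal head (FH) libraries made by RNA-hydrolysis were compared with FH libraries made by cDNA-shearing, to see which transcripts, and which regions of a transcript, each fragmentation method represented with more sequence tags. The comparison rests on 6 of the 24 samples of the series, chosen by their labels. All 6 were made from RNA of mouse fetal head at 14.5 dpc that had been depleted of ribosomal RNA with the RiboMinus kit. The 4 hydrolysed libraries are 1 preparation with 1 round of depletion (FH1) and 1 preparation with 2 rounds (FH2), each sequenced at Vienna-IMP and at Nijmegen. The 2 sheared libraries are 1 preparation with 1 round of depletion (FH1), sequenced at both locations. These are 3 cDNA preparations and not separate animals, so every p-value below measures only the spread between these 6 libraries. The protocol text of the sheared samples describes hydrolysis as well, and the method was taken from the labels' own field for fragmentation. Of 37273 genes of GENCODE M1 (mm9), 11214 had a mean RPKM over 3 in at least 1 group and were tested.

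In RNA-hydrolysis the RNA itself is broken by heat and divalent ions, and random primers then copy the short pieces, so that one end of a cDNA lies where a primer annealed. In cDNA-shearing the intact RNA is primed and copied first, and the double-stranded cDNA is broken afterwards by sonication, so that most fragment ends lie where the DNA broke. In both methods a sequence tag is read from a fragment end, and the fragments pass through adapter ligation, size selection and PCR. Fetal head is a mixed tissue, mainly brain with eye, skin, muscle, cartilage and blood, in which fewer cells of a type and less RNA per cell cannot be told apart. RPM denotes tags per 1000000 unique tags of the library, and RPKM the same per kilobase of exon.

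The deposited files held 2115848 and 2188956 unique tags for hydrolysed FH1 and FH2 at Vienna-IMP, 1597887 and 2133462 for hydrolysed FH1 and FH2 at Nijmegen, and 968337 and 920424 for sheared FH1 at Vienna-IMP and Nijmegen. Values for 6 libraries are given in this order throughout. The sheared libraries thus had fewer tags than every hydrolysed library, and genes with few tags are measured less precisely in them. Markers of the head were present in all 6 libraries, with summed RPKM of 319.8 to 731.2 for 4 neuronal genes, 87.8 to 192 for 3 lens genes and 762 to 1479 for 3 globins, whereas 3 markers of pluripotent cells summed to between 0 and 0.209. Pearson's r of log2(RPKM + 1) over the genes tested was 0.834 to 0.901 among the hydrolysed libraries, 0.835 between the sheared libraries and 0.650 to 0.812 between the methods. Hydrolysed libraries of the same label at the 2 locations were not the most alike (r = 0.834 for FH1 and 0.855 for FH2), whereas FH1 of Vienna-IMP and FH2 of Nijmegen had 0.901, FH1 and FH2 within Vienna-IMP 0.897 and within Nijmegen 0.863, and FH2 of Vienna-IMP and FH1 of Nijmegen 0.843. Whether FH1 and FH2 were exchanged at one location was not tested, and values that separate 1 from 2 rounds of depletion rest on these labels. With 4 libraries against 2 there are 15 ways to choose the sheared libraries, and the smallest p of an exact permutation test is 0.0667, so no single value could pass 0.05 and each is given per library.

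The position at which tags began differed between the methods. The following stretches of the reference genome hold starts that were among the most used in these libraries, and they are shown because many tags began at exactly the same base. Each is written 5′ to 3′ on the strand of the tag, with the first 6 bases of the cDNA in capitals and the bases before them, which were not sequenced at that start, in lower case.
Actb, coding exon, chr5:143667127-143667156, minus strand: gggtgtgatgGTGGGAatgggtcagaagga
Hbb-y, coding exon, chr7:111000483-111000512, minus strand: tgggtaatgtGCTGGTgattgttttggcta
Hist1h4h, coding exon, chr13:23622986-23623015, plus strand: gtctggtcgtGGCAAGggcggtaaaggtct
AC113316.1, exon of a miRNA gene, chr5:147072628-147072657, plus strand: cccagcccgtGGACGGtgtgaggctggtcg
Window outside genes, chr11:108873226-108873255, minus strand: aatccagagtGGCGGAgatgggcgccgcga

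In Actb, the gene of cytoplasmic beta-actin, 252, 166, 144 and 256 tags began at the base shown in the hydrolysed libraries and 3 and 12 in the sheared libraries. In Hbb-y, an embryonic beta-globin, 111, 64, 30 and 149 tags of the hydrolysed libraries began at the base shown, against 1 and 0 of the sheared libraries. These 2 starts were chosen among the 5 most used in the hydrolysed libraries, which favours this direction. In Tubb5, the gene of a beta-tubulin, 2 other starts of that set overlapped between the methods, with 104, 83.1, 16.3 and 29.1 RPM against 43.4 and 23.9 at the first and 79.4, 41.6, 39.4 and 66.6 against 14.5 and 51.1 at the other. In Hist1h4h, a replication-dependent histone H4 gene, the start shown held 26.5, 27.0, 55.7 and 30.5 RPM after hydrolysis and 46.5 and 143.4 after shearing, so that the groups overlapped. The start outside genes on chromosome 11 held 2092, 3880, 12374 and 5890 RPM after hydrolysis and 5990 and 7171 after shearing, and these also overlapped. The starts were chosen for their high counts, and no test was made of them.

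Over all tags, the base composition at the beginning of the tag departed from that further in far more after hydrolysis. The departure at a base was the sum of the absolute differences of the 4 base shares from those at bases 21 to 30, divided by 2. Its mean over bases 1 to 13 was 9.59, 9.31, 9.10 and 9.27 percentage points in the hydrolysed libraries and 4.44 and 3.95 in the sheared libraries (9.32 ± 0.203 against 4.20 ± 0.344, SD, n = 4 and 2, exact permutation p = 0.0667). The first base was G in 48.5, 45.5, 42.8 and 45.8% of hydrolysed tags and in 34.3 and 33.2% of sheared tags. Further in, G was less frequent after hydrolysis than after shearing (26.3 to 27.1% against 29.0 and 30.3%). A stood at the first base of 11.5 to 12.6% of hydrolysed and of 19.3 and 18.6% of sheared tags. None of these ranges overlapped between the methods. With each start position counted once, so that repeated starts such as that of Actb had no extra weight, the departure was 8.98, 8.68, 8.33 and 8.49 percentage points against 3.02 and 2.63.

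**Figure D1:**
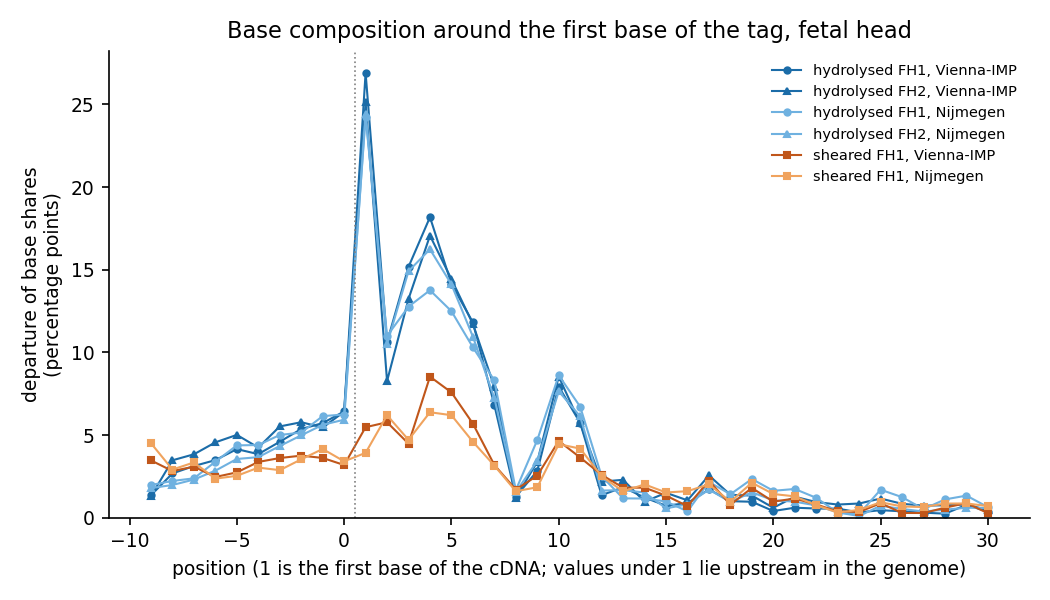
Departure of the 4 base shares from those at bases 21 to 30 (percentage points, vertical axis) by position relative to the first base of the cDNA (horizontal axis), 1 line per fetal head library. The 4 hydrolysed libraries stand above both sheared libraries at bases 1 to 7 and 9 to 11. They also do so upstream of the first base, at positions -6 to 0. All 6 lines are close together beyond base 12.

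The same held for the first 6 bases as a hexamer. Among tags in coding exons, with each start counted once, 3420 hexamers were seen at least 20 times at bases 25 to 30 in every library. The share of a hexamer at the start was more than 2-fold above or below its share at bases 25 to 30 for 1727, 1630, 1528 and 1561 hexamers in the hydrolysed libraries and for 281 and 152 in the sheared libraries. The most favoured hexamer after hydrolysis was GGGGGA, at 11.6, 9.00, 11.3 and 8.67 times its inner share, against 4.56 and 4.27 times after shearing, where it also ranked first. GTGGGG was favoured 8.45, 8.35, 8.36 and 8.13 times against 4.14 and 3.24 times. At the other end, ACATAG began tags at 0.0566 times its inner share on average after hydrolysis and at 0.604 times after shearing, and TCAATC at 0.0571 against 0.588 times. These 4 hexamers were picked from the extremes after hydrolysis.

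Sheared tags came from sequence richer in G and C. The mean GC content of tags was 54.0, 54.9, 52.7 and 53.8% in the hydrolysed libraries and 59.3 and 60.9% in the sheared libraries. Within coding exons it was 56.7, 56.9, 54.5 and 56.1% against 60.0 and 60.8%, a difference, hydrolysed minus sheared, of -4.33 percentage points (exact permutation p = 0.0667), and the 200 bases from the tag start onwards had 57.7, 58.0, 56.3 and 58.0% against 61.0 and 62.3%. The groups did not overlap in any of these measures. The difference was larger at Nijmegen (-5.50 percentage points within coding exons) than at Vienna-IMP (-3.15).

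When exons and introns were cut into windows of 100 bases, the RPM of the windows after hydrolysis relative to shearing was above 1 in GC-poor windows and fell with the GC content of the window above 45%. In coding windows of 35 to 40% GC hydrolysis gave 2.48 times as many tags as shearing, in windows of 45 to 50% it gave 1.91 times, in windows of 55 to 60% it gave 0.742 times and in windows of 70% and above 0.379 times. The ratio also fell in 3′ UTRs, from 2.37 times at 35 to 40% to 0.566 times at 70% and above, and in introns, from 2.02 times at 40 to 45% to 0.375 times at 70% and above. The order of the regions turned with GC content: in windows of 35 to 40% the ratio was 2.48 in coding exons, 2.37 in 3′ UTRs and 1.77 in introns, in windows of 55 to 60% the ratio was 1.13 in 3′ UTRs and 1.14 in introns against 0.742 in coding exons, and in windows of 60 to 65% it was 0.862 and 0.822 against 0.510. At 70% and above, coding exons and introns were alike (0.379 and 0.375). Each location had a single sheared library, so location and library cannot be told apart here. In coding windows of 35 to 40% the ratio was 1.73 at Vienna-IMP and 3.64 at Nijmegen. In 8 RiboMinus libraries of CCE cells, embryonic stem cells differentiated for 5 days with 0.266 µM retinoic acid, made by the same methods at the same locations, that ratio was 2.01 and the ratio at 70% and above was 0.389.

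**Figure D2:**
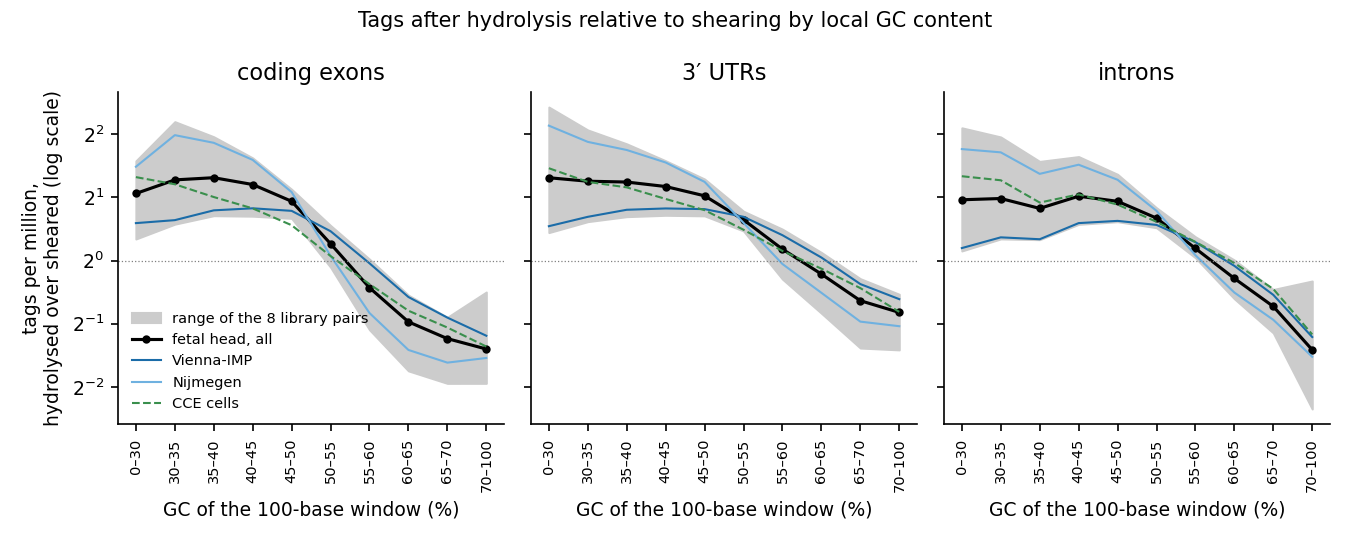
RPM after hydrolysis relative to shearing (vertical axis, log scale) by GC content of 100-base windows (horizontal axis) in coding exons, 3′ UTRs and introns. Black is the mean of the fetal head libraries, blue lines are the locations, the grey band spans the 8 pairs of 1 hydrolysed and 1 sheared library, and green is CCE. All lines fall from above 1 at low GC to below 1 at high GC, more steeply at Nijmegen.

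The share of tags by annotation also differed. Introns of protein-coding genes, which have a low GC content, held 31.4, 32.3, 37.9 and 32.8% of tags after hydrolysis and 24.2 and 20.1% after shearing (33.6 ± 2.90% against 22.1 ± 2.87%, SD, n = 4 and 2, exact permutation p = 0.0667). 3′ UTRs held 13.4, 11.7, 11.2 and 12.8% against 8.87 and 8.66% (12.2 ± 0.991% against 8.77 ± 0.149%, exact permutation p = 0.0667). Both shares were higher in every hydrolysed library. Coding exons held 37.2, 33.5, 26.7 and 34.6% against 36.5 and 43.5%, and 5′ UTRs 3.17, 2.89, 2.56 and 3.81% against 3.71 and 4.93%, so that the methods overlapped in both. With repeated positions counted once they no longer overlapped. The differences, hydrolysed minus sheared, were then -14.6 percentage points in coding exons and -2.03 in 5′ UTRs (exact permutation p = 0.0667 each). With all tags they were -6.97 and -1.21. In 3′ UTRs the difference was 1.89 points with positions counted once and 3.48 with all tags. There were 0.844, 0.963, 1.42 and 0.950 intronic tags for each coding tag after hydrolysis and 0.662 and 0.462 after shearing.

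Tags outside genes went the other way through a few positions. They made up 8.62, 12.7, 14.5 and 9.51% of hydrolysed and 18.9 and 16.0% of sheared tags. A single 1 kb window, chr11:108873001-108874000, in which GENCODE M1 has no gene, held 2.47, 5.64, 7.23 and 2.92% of all hydrolysed tags and 11.3 and 8.49% of all sheared tags, and 7 such windows together held 3.71, 7.87, 9.19 and 4.45% against 15.2 and 12.7%. These windows were listed because they hold many tags. Which RNA their tags come from, residual ribosomal RNA included, was not tested. Their tags are part of the totals by which RPM and RPKM are scaled. Outside genes and without them, the order was reversed, with 5.10, 5.20, 5.86 and 5.30% of the other tags after hydrolysis and 4.36 and 3.82% after shearing (exact permutation p = 0.0667).

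Within mRNAs, shearing left the 3′ end with fewer tags. The 3′ UTR density relative to the coding density of the same mRNAs was 0.641, 0.651, 0.735 and 0.683 after hydrolysis and 0.467 and 0.503 after shearing for 538 mRNAs under 1 kb. It was 0.527, 0.513, 0.619 and 0.542 against 0.353 and 0.290 for 7571 mRNAs of 1 to 8 kb, and 0.422, 0.410, 0.518 and 0.445 against 0.302 and 0.223 for 333 mRNAs over 8 kb. The methods did not overlap in any length class (exact permutation p = 0.0667 each), and in all 6 libraries the 3′ UTR was below the coding exons. The 3′ UTRs of these classes had a median GC content of 46.6, 46.5 and 41.8% and the coding exons 55.5, 54.7 and 50.9%, so that the 2 regions also differed in GC content.

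Seen from the 3′ end, the gradient along long mRNAs was steeper after shearing. In 2169 mRNAs of 4 to 8 kb, the last 500 bases before the 3′ end held 0.572, 0.540, 0.618 and 0.573 times the mean density of the last 4 kb after hydrolysis and 0.384 and 0.327 times after shearing. At 3500 to 4000 bases from the 3′ end the density was 1.30, 1.32, 1.30 and 1.35 times the mean against 1.49 and 1.56 times. Neither method thus gave most tags at the 3′ end, and the sheared libraries had the larger deficit there. Within coding exons alone, dividing the density of the last 20% by that of the first 20% gave 0.989, 0.985, 0.908 and 0.891 after hydrolysis and 0.815 and 0.790 after shearing in mRNAs of 1 to 8 kb. In mRNAs over 8 kb the same ratio was 0.850, 0.875, 0.777 and 0.782 against 0.822 and 0.819, and the sheared libraries lay among the hydrolysed ones (exact permutation p = 1). At the other end, the 5′ UTRs of mRNAs over 8 kb had a density over that of their coding exons of 1.13, 1.07, 1.13 and 1.41 after hydrolysis and 1.49 and 1.81 after shearing, while the groups overlapped in the shorter classes.

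**Figure D3:**
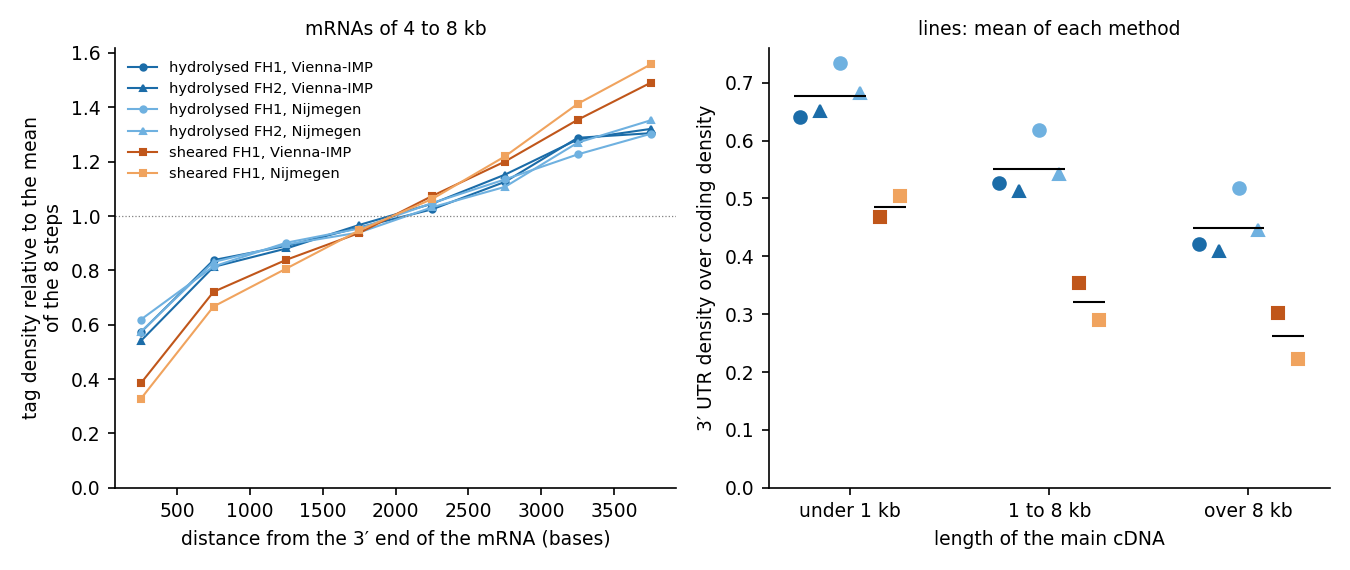
Left, tag density relative to the mean of 8 steps of 500 bases (vertical axis) by distance from the 3′ end (bases) in mRNAs of 4 to 8 kb, 1 line per library. Right, 3′ UTR density over coding density (vertical axis) by length class of the cDNA, 1 point per library with the mean of each method as a line. Both sheared libraries lie lowest near the 3′ end, and lowest in each length class.

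Tags that share start and strand with another tag were as frequent in both methods when all tags were counted (26.5, 26.3, 23.6 and 24.3% against 25.3 and 25.2%). Since repeats grow with depth, each library was also thinned to 920424 tags, and repeats then made up 18.4, 19.5, 20.1 and 17.6% after hydrolysis and 25.2 and 25.2% after shearing (exact permutation p = 0.0667). At equal depth the sheared libraries thus held more repeated positions, which can be copies of 1 molecule or separate molecules with the same start. All tags entered this count, also those of the listed windows outside genes. These windows held a mean of 6.30% of hydrolysed and 13.9% of sheared tags, and repeats without them were not counted.

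At the level of genes, 1352 of 11214 differed between the methods in limma with an adjusted p under 0.05, which is 12.1% of the genes tested. Of these, 813 (7.25%) had a higher RPKM after hydrolysis and 539 (4.81%) a lower one. The balance between the directions depended on the scaling, with 915 higher and 1053 lower under median-ratio size factors and 1252 higher and 742 lower when scaled to exon tags of protein-coding genes. In voom, which also weights the counts, 767 were higher and 1143 lower. The differences ran from -4.20 to 5.60 on the log2(RPKM + 1) scale and exceeded 2-fold in 1097 genes. Both extremes lay in classes of short genes, the lowest in a small nucleolar RNA gene and the highest in a miRNA gene. All 1352 had the same sign at Vienna-IMP and at Nijmegen, as did 73.4% of all genes, and in none did the 2 groups overlap. Over all genes, 24.0% had every hydrolysed library above both sheared ones and 23.3% every hydrolysed library below. The median GC content of the exons was 44.6% in the genes that were higher, 58.4% in those that were lower and 51.7% in all. The number of genes depends on single libraries: it was 111 without hydrolysed FH1 of Vienna-IMP, 971 without hydrolysed FH2 of Vienna-IMP, 762 without hydrolysed FH1 of Nijmegen, 89 without hydrolysed FH2 of Nijmegen, 491 without the sheared library of Vienna-IMP and 95 without that of Nijmegen. It was 30 among the 1-round libraries alone and 110 after a smooth function of exon GC had been removed from each library, where 12 of the 30 genes named below for their size of change still passed.

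The 10 protein-coding genes with the largest gains after hydrolysis had roles in many parts of the cell. Shfm1, a small proteasome subunit, had RPKM of 273, 213, 321 and 324 after hydrolysis and 43.3 and 27.3 after shearing (log2 difference 2.98, SE 0.33, adjusted p = 0.010). Magoh, a core protein of the exon junction complex, had RPKM of 81.6, 52.2, 70.7 and 93.1 against 9.39 and 8.47 (2.90, SE 0.29, adjusted p = 0.0085). Both were several-fold higher in every hydrolysed library. Sln, the muscle regulator of the calcium pump of the sarcoplasmic reticulum, had 33.0, 30.2, 23.1 and 34.6 against 4.01 and 4.22 (2.59, SE 0.24, adjusted p = 0.0066), where the sheared values rest on few tags. The others were Anapc13 of the anaphase-promoting complex (3.15), Cetn3, a centrin of the centrosome (2.61), Thoc7 of the THO complex for mRNA export (2.58), the epithelial calcium-binding protein S100a14 (2.51), the RNase P subunit Rpp30 (2.44) and Nop10 of the H/ACA ribonucleoprotein (2.38). Ndufaf2, an assembly factor of respiratory complex I, had the largest difference (3.35, SE 0.57) but rests on 37, 32, 27 and 30 tags against 3 and 0, where a count of 0 allows up to 3. The exons of these 10 genes had 34.7 to 54.3% GC. After the smooth function of GC was removed, Shfm1 (2.62, adjusted p = 0.011), Magoh (2.25, adjusted p = 0.018) and Sln (2.47, adjusted p = 0.0068) still passed, and Ndufaf2 did not (3.02, adjusted p = 0.061).

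Replication-dependent histone genes, whose short mRNAs of a single exon end in a stem-loop in place of a poly(A) tail, were the group most often lower after hydrolysis. Of 67 such genes 55 were tested, of which 17 fell and 1 rose, so that 30.9% were lower against 4.81% of all genes. Their median log2 difference was -1.45 (-0.72 at Vienna-IMP and -2.03 at Nijmegen), against -0.01 over all genes. Their summed RPKM was 3594, 3583, 3562 and 3794 in the hydrolysed libraries and 6148 and 12677 in the sheared libraries, which were both higher but differed from each other as much as from the rest. Hist1h4h had RPKM of 472, 505, 763 and 580.4 against 1199.7 and 2651 (log2 difference -1.64, SE 0.40, adjusted p = 0.041). The largest losses were in Hist2h3b, with 43.6, 44.0, 18.0 and 27.9 against 224 and 365 (-3.15, SE 0.43, adjusted p = 0.017), and in Hist1h3i, with 23.5, 33.1, 33.7 and 38.8 against 179.6 and 409 (-3.05, SE 0.39, adjusted p = 0.015). Hist1h4j (-2.71), Hist1h4f (-2.52), Hist1h3g (-2.39), Hist1h4i (-2.29) and Hist1h3b (-2.27) followed. Hist1h2bb was the one that rose, with 96.7, 104, 105 and 84.0 against 35.2 and 37.1 (1.40, adjusted p = 0.027), and it is named here because its values were seen. The exons of the histone genes tested had a median of 59.4% GC. With the smooth function of GC removed their median was -0.94, and 2 remained lower and 1 higher. Histone genes have near-identical copies, and tags that match several copies are not in the files, so the values of single genes are uncertain. Without hydrolysed FH2 of Nijmegen 3 passed as lower, without hydrolysed FH1 of Vienna-IMP 4, and without the sheared library of Nijmegen none did.

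Other genes lower after hydrolysis were Gpr27, an orphan receptor with 72.8% GC in its single exon (RPKM 1.24, 6.41, 3.84 and 3.70 against 12.7 and 32.4, log2 difference -2.28), and the predicted genes Gm11175 (-2.18) and Znhit2-ps (-2.05). The whole exon of Gm11175 overlaps another gene, and since the tags carry no strand of the RNA the genes cannot be told apart.

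**Figure D4:**
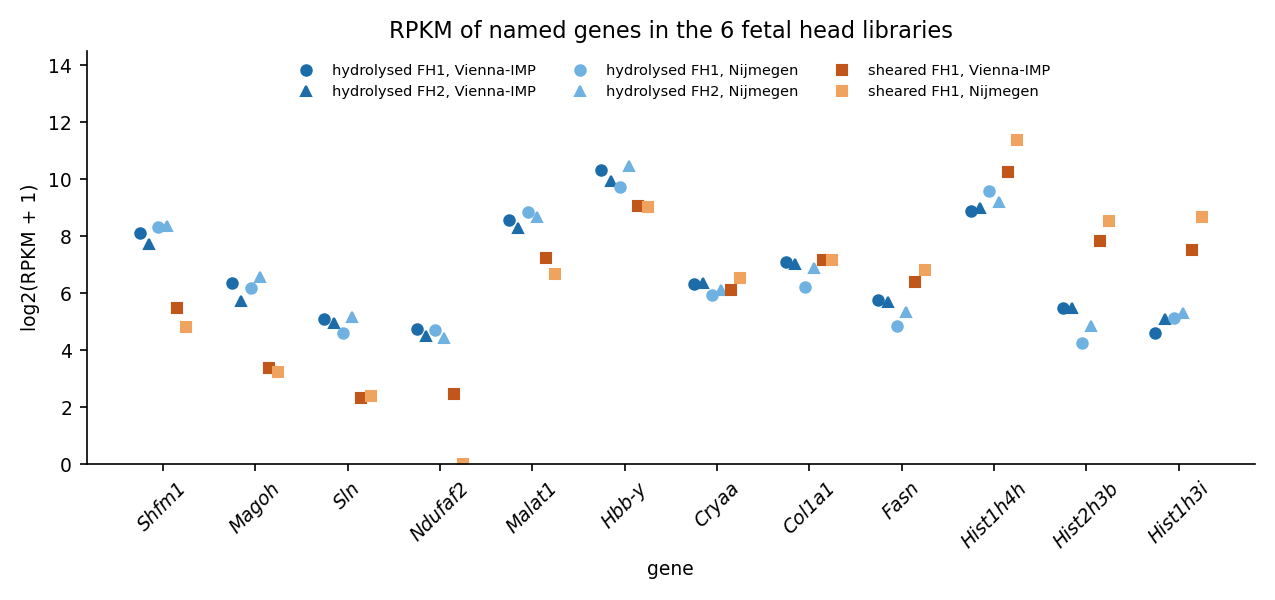
Level of 12 genes as log2(RPKM + 1) (vertical axis), 1 point per fetal head library. Shfm1, Magoh, Sln, Ndufaf2 and Malat1 lie higher in all 4 hydrolysed libraries, Hist1h4h, Hist2h3b and Hist1h3i lie higher in both sheared libraries, the libraries mix for Cryaa, and Col1a1 lies slightly higher in both sheared libraries without passing the test.

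Short mRNAs did not all behave like those of histones. Among nuclear genes of oxidative phosphorylation 80 of 93 were tested, of which 16 rose (20.0%, against 7.25% of all genes) and none fell, with a median log2 difference of 0.45. Only 1 rose without hydrolysed FH1 of Vienna-IMP, 1 without hydrolysed FH2 of Nijmegen, 7 without the sheared library of Vienna-IMP, 2 without that of Nijmegen, 9 without hydrolysed FH2 of Vienna-IMP, and 2 with the smooth function of GC removed. These included Cox7a2 of cytochrome c oxidase (RPKM 75.8, 79.4, 58.9 and 76.5 against 21.9 and 30.3, log2 difference 1.45), Uqcr10 of complex III (1.44), Ndufv2 of complex I (1.70) and Atp5k of ATP synthase (2.33), which were picked from those that passed. The most abundant members did not pass: Cyc1 had RPKM of 211, 141, 106 and 201 against 159 and 190.2 (-0.13), and Cox8a 206, 137, 104 and 194 against 75.8 and 114 (0.73, adjusted p = 0.19). The 16 genes that passed had 41.7 to 56.2% GC, and Cyc1 and Cox8a 58.3 and 58.9%. Of ribosomal protein genes 61 of 82 were tested, of which 4 rose (6.56%, near the 7.25% of all genes) and none fell (median 0.20). Rpl8 had RPKM of 259, 342, 215 and 222 against 361 and 524 (-0.77, adjusted p = 0.14). Many ribosomal protein genes have processed copies elsewhere in the genome, so that their unique tags are few and their values uncertain.

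Genes of transcription factors were called in both directions. Of 130 homeobox genes 64 were tested, of which 10 fell (15.6%, against 4.81% of all) and 1 rose, with a median log2 difference of -0.52. Those that fell had 55.2 to 67.4% GC and included Six2 (RPKM 6.50, 9.10, 5.64 and 8.45 against 24.0 and 29.9, log2 difference -1.74), Msx1 (-1.34) and Pitx1 (-1.24), which pattern the face and head, and the neural factors Pou3f2 (-1.69) and Pou3f3 (-1.07). The one that rose was Meis1 (1.23), with 44.3% GC. Lhx2, one of the most abundant, did not pass (-0.48). Of 365 zinc finger genes named Zfp 181 were tested, of which 27 rose (14.9%, against 7.25% of all genes) and 18 fell (9.94%, against 4.81%). This balance turned with the processing, to 28 higher and 36 lower under median-ratio size factors, 23 and 39 in voom and 27 and 42 with repeated positions counted once. The GC content of those that rose was 37.4 to 50.2% and of those that fell 56.8 to 66.9%, so that the 2 sets did not overlap in GC. Zfp358, with 60.4% GC, had 52.3, 51.6, 31.3 and 56.3 against 115 and 120.1 (-1.31, SE 0.31, adjusted p = 0.040), and Zfp428 did not pass (-0.33). With the smooth function of GC removed, none of the homeobox and Zfp genes passed. The counts rest on single libraries: of the homeobox genes 1 fell without hydrolysed FH1 of Vienna-IMP, 1 without hydrolysed FH2 of Nijmegen, 6 without hydrolysed FH1 of Nijmegen, 3 without the sheared library of Vienna-IMP and 0 without that of Nijmegen. Of the Zfp genes 0 rose and 0 fell without hydrolysed FH1 of Vienna-IMP, without hydrolysed FH2 of Nijmegen or without the sheared library of Nijmegen, 11 rose and 12 fell without hydrolysed FH1 of Nijmegen, and 8 rose and 1 fell without the sheared library of Vienna-IMP.

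Genes that mark the tissues of the head differed gene by gene, and each count here is to be read against the 7.25% of all genes that rose and the 4.81% that fell. Of 39 neuronal genes tested 4 rose, namely the RNA-binding proteins Elavl2 and Elavl4 and the glutamate receptor subunits Gria2 and Gria4, with 38.1 to 43.1% GC, and 3 fell, namely the neurofilaments Nefl and Nefm and the synaptic protein Syn1, with 48.8 to 57.8% GC. Stmn2, a regulator of microtubules in growing neurons, had RPKM of 284, 177, 236 and 403 against 96.5 and 107 (log2 difference 1.37, adjusted p = 0.051), and Tubb3, the neuronal beta-tubulin, 388, 230.4, 88.4 and 200.5 against 174 and 176 (0.19, adjusted p = 0.81). Stmn2 thus just missed the threshold with groups that did not overlap, as in 24.0% of all genes tested in that direction. Tubb3 varied more among the hydrolysed libraries than between the methods. Of 13 crystallins of the lens 3 rose, Cryba1 (102, 54.9, 76.0 and 103 against 18.9 and 12.6, log2 difference 2.33), Crygb (1.97) and Crygd (1.66), while Cryaa had 78.5, 80.1, 60.7 and 68.0 against 67.9 and 90.7 (-0.14). Crygd rests on 25, 19, 9 and 9 tags against 1 and 2. Of 21 muscle genes 2 rose and 1 fell. Ttn, the giant protein of the sarcomere, had 5.02, 4.41, 5.36 and 5.74 against 2.44 and 2.46 (0.82, SE 0.20, adjusted p = 0.043), Myl1 rose (1.89) and Myod1, the master factor of muscle, fell (-1.38). Mylpf had 1.24 and Actc1 0.79 and did not pass. Of 29 collagens 1 fell, Col16a1, and Col1a1 and Col2a1 did not pass (-0.36 and -0.21). Of 10 keratins 1 fell, Krt14 (-1.19), and Krt5 and Krt15 did not pass (-0.46 and 0.13). None of 6 globins passed, with Hbb-y at 1273, 969.7, 848 and 1399.8 against 528 and 523 (1.07, adjusted p = 0.064) and Hbb-b1 at 114, 199, 133 and 66.8 against 226 and 337 (-1.20, adjusted p = 0.10). Of 40 genes of the cell cycle and DNA replication 5 rose, Cdk1, Cdk2, Ccnb2, Gins4 and Orc3, and Ccnd1 fell (-1.02), whereas Cdk4 and Mcm2 did not pass (0.11 and -0.48). With the smooth function of GC removed, 1 crystallin passed as higher and 2 neuronal genes as lower. None of the muscle, collagen, keratin, globin and cell cycle genes passed there.

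Of the long nuclear RNAs, Malat1, an abundant RNA of nuclear speckles, had RPKM of 375, 309, 458 and 403 against 149 and 101 (log2 difference 1.63, SE 0.32, adjusted p = 0.029). Of 13 long nuclear and imprinted ncRNAs tested, Malat1 and Dlx6os1 (1.46) rose (15.4%, against 7.25% of all genes). None fell, against 4.81% of all genes, and the median of the 13 was 0.59. With the smooth function of GC removed, none of the 13 passed. Airn, the imprinted macro ncRNA that silences Igf2r on the paternal chromosome, had 3.69, 3.32, 2.45 and 3.27 against 1.44 and 1.21 (0.84, adjusted p = 0.086), with 14 to 28 exon tags after hydrolysis and 5 and 4 after shearing. Igf2r had 30.9, 28.7, 25.1 and 30.6 against 17.4 and 24.2 (0.47, adjusted p = 0.21), and H19 215, 297, 238 and 230.2 against 236 and 225 (0.08). The values of Airn and Igf2r did not overlap between the methods, as in 24.0% of all genes tested in that direction, while those of H19 did. The RPKM of Airn covers its annotated exons only. Airn runs antisense over part of Igf2r, and the tags carry no strand of the RNA. Of 267 lincRNA genes 21 rose (7.87%, against 7.25% of all genes) and 18 fell (6.74%, against 4.81%).

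Of 214 small nucleolar RNA genes tested 16 rose (7.48%) and 7 fell (3.27%), near the 7.25% and 4.81% of all genes. Scarna10, a guide RNA of Cajal bodies, had RPKM of 350.5, 678, 1296 and 500.4 against 121 and 76.9 (log2 difference 2.69, SE 0.52, adjusted p = 0.029). snoZ40 (2.75) and SNORA12 (2.65) also rose, whereas Scarna2, the most abundant, had 3119, 3109.6, 1546 and 2412 against 3101 and 3364 (-0.40, adjusted p = 0.44) and Scarna13 did not pass (0.83). RNase_MRP, the RNA of the enzyme that processes ribosomal RNA precursors, made up 2622, 5509, 5636 and 2848 RPM after hydrolysis and 14368 and 11106 after shearing (-1.69, adjusted p = 0.038). 7SK, the RNA that holds the elongation factor P-TEFb, made up 1939, 3578, 4127 and 2194 RPM against 2244 and 1473 over all its copies, and its main copy on chromosome 9 did not pass (0.64, adjusted p = 0.27). RNase_MRP thus fell, while the values of 7SK overlapped between the methods. RNase_MRP has 64.2% GC and 7SK 58.0%. Ccdc107, whose exons overlap the RNase_MRP gene, had 967, 2036, 1678 and 927 against 2807 and 3607 (-1.27, adjusted p = 0.075). Of 199 miRNA genes tested 11 rose (5.53%) and 10 fell (5.03%), near the shares of all genes. Loci of miRNA genes can lie within other transcripts, and how many of these do was not counted. Small nucleolar RNA and miRNA genes are short, with median exon lengths of 90 and 86 bases, and few tags suffice to pass the filter on RPKM. AC109299.1, a miRNA gene, is such a case. It had RPKM of 6.30 and 6.62 after shearing, which few tags suffice to give, and 0 in every hydrolysed library. How many of the calls in these classes rest on such counts was not tested. AC113316.1, annotated as a miRNA gene of 82 bases, took most of the tags of the miRNA class, which made up 3316, 6855, 9999 and 5159 RPM against 15948 and 11924 with it and 267.0, 295.6, 252.8 and 237.6 against 324.3 and 440.0 without it (exact permutation p = 0.0667 each). Mir675 fell (-1.81), but it lies wholly within H19. Of 449 pseudogenes 55 rose (12.2%) and 9 fell (2.00%), with a median of 0.41. Other genes that GENCODE M1 does not class as protein-coding were named by size of change. Of these, Gm16062 (3.07) and Gm6415 (2.97) rose, and Gm15645 (-1.82), Gm16159 (-1.77), Tigd5 (-1.75) and BC028777 (-1.75) fell. Spliceosomal snRNA genes held 12.8, 16.0, 18.8 and 14.5 RPM after hydrolysis and 17.6 and 8.69 after shearing in all, too few tags to describe single genes. Of 28 tested 2 rose (7.14%, near the 7.25% of all genes) and none fell. Their median log2 difference was -1.43, in the direction opposite to that of the genes called. In addition, of 27 genes in a list made up mostly of copies of 7SK, which does not hold RNase_MRP, 2 rose (7.41%) and none fell.

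Across 8641 protein-coding genes with a mean of at least 20 tags, the difference between the methods varied with the GC content of the exons in every library, and with the length of the cDNA in no common direction. In the 10% of genes with the lowest GC (median 40.5%) the median log2 difference was 0.69 and 92.8% of genes were higher after hydrolysis, whereas in the 10% with the highest GC (median 60.2%) it was -0.81 and 3.59% were higher. From the lowest to the highest of these groups the median went from 0.41 to -0.45 at Vienna-IMP and from 0.91 to -1.20 at Nijmegen. The correlation across genes, which are not replicates and share libraries, was -0.678 (-0.474 at Vienna-IMP and -0.729 at Nijmegen). By length of the cDNA the median was 0.10 under 0.5 kb, 0.24 at 0.5 to 1 kb, 0.01 at 1 to 2 kb, 0.00 at 2 to 4 kb, 0.04 at 4 to 8 kb and 0.19 over 8 kb, with r = -0.032 for the logarithm of the length (-0.113 at Vienna-IMP and 0.020 at Nijmegen). The libraries differed here: hydrolysed FH1 of Vienna-IMP went from 0.58 at 0.5 to 1 kb to 0.06 at 4 to 8 kb, and hydrolysed FH1 of Nijmegen from -0.24 to -0.09. Long and short mRNAs differ in GC content, and after the GC curve was removed the medians fell steadily from 0.5 kb on, with 0.34, 0.46, 0.17, 0.01, -0.12 and -0.15. In mRNAs over 8 kb, Vcan, a matrix proteoglycan with 42.7% GC, had 43.4, 36.2, 45.2 and 44.9 against 28.0 and 22.1 (0.74, adjusted p = 0.081), and Fasn, the fatty acid synthase with 57.4% GC, had 53.2, 50.5, 27.6 and 39.4 against 83.1 and 112 (-1.20, adjusted p = 0.054). In mRNAs under 1 kb, Lgals1, a galectin, had 1264, 887, 741 and 1109.7 against 399 and 504 (1.13, adjusted p = 0.060). These 3 did not pass. Their groups did not overlap, as in 24.0% of all genes with hydrolysis higher and 23.3% with shearing higher. Of the most abundant mRNAs of 1 to 8 kb, Tubb5, Nnat and Igf2 did not pass (-0.66, 0.62 and 0.11).

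**Figure D5:**
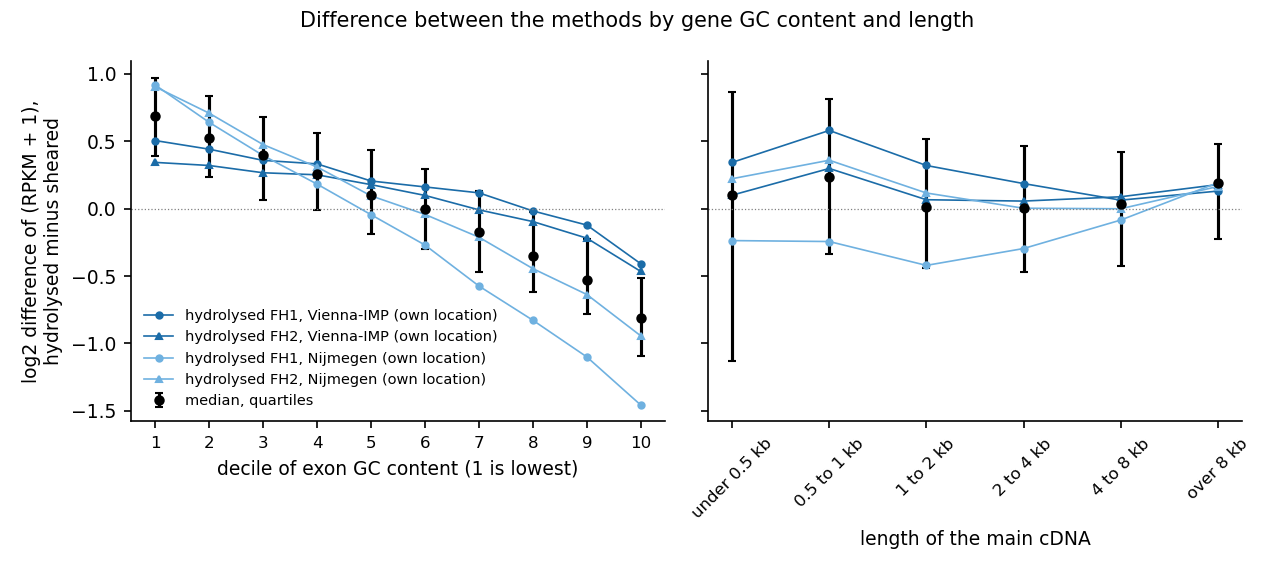
Median log2 difference between the methods (vertical axis) in 10 groups of equal size by exon GC content (left) and by length of the main cDNA (right) for protein-coding genes. Black points and bars are the median and quartiles over genes, coloured lines set each hydrolysed library against the sheared library of its own location. All 4 lines fall from the lowest to the highest GC group, most in hydrolysed FH1 of Nijmegen, and with length the lines of single libraries run in different directions.

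The 3′ UTR of single genes was compared with the coding exons of the same gene, which needs no scaling between libraries. Of 3887 genes with enough tags 1079 (27.8%) had a higher ratio of 3′ UTR to coding tags after hydrolysis and 51 (1.31%) a lower one, with a median log2 difference of 0.64 and 3005 genes above 0. Where the 3′ UTR was over 15 percentage points poorer in GC than the coding exons the median was 1.57 and 61.3% of genes passed as higher. Where it was 0 to 5 points richer the median was 0.02, with 16 of 289 genes higher and 20 lower. D4Wsu53e had 40, 31, 24 and 49 3′ UTR tags for 250, 195, 144 and 270 coding tags after hydrolysis, and 3 and 1 for 214 and 404 after shearing (log2 difference 4.15, SE 0.52, adjusted p = 0.0014); its 3′ UTR has 37.7% and its coding exons 59.6% GC. Eid1, an inhibitor of differentiation (4.52), Pex10 of peroxisome biogenesis (4.11), Syde1 (3.62) and Hist1h4a (3.43) were the others with the largest gains. Eid1 had 7 and 0 and Pex10 1 and 0 3′ UTR tags in the sheared libraries, so the size of their differences depends on the added count, and 38.6% of the 3′ UTR of Eid1 overlaps another gene. In the opposite direction, Rab35, a GTPase of endosome recycling, had 176, 146, 86 and 192 3′ UTR tags for 118, 80, 59 and 142 coding tags, against 82 and 97 for 15 and 29 after shearing (-1.44, SE 0.33, adjusted p = 0.0078), and its 3′ UTR and coding exons differ little in GC (52.2 and 51.5%). Stx1a of synaptic vesicle fusion (-1.89), Sap30bp (-1.75), Hist3h2ba (-1.67) and Dnajc10 (-1.65) also fell. Without the sheared library of Nijmegen 520 genes passed.

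Intronic tags, which come mainly from unspliced RNA, gave a similar picture. Of 5206 genes with enough tags 1027 (19.7%) had a higher ratio of intron to exon tags after hydrolysis and 69 (1.33%) a lower one, with a median log2 difference of 0.52. The median was 1.22 where introns were over 15 percentage points poorer in GC than exons, 0.74 at 5 to 10 points poorer and -0.01 where they were 0 to 5 points richer. Shroom3, an actin regulator of neural tube closure, had 63, 66, 48 and 52 intron tags for 15, 24, 10 and 12 exon tags after hydrolysis and 21 and 8 for 21 and 27 after shearing (2.72, SE 0.41, adjusted p = 0.0013). The genes a (2.94), Tsc22d2 (2.86), C1qtnf4 (2.70) and 6330407J23Rik (2.68) were the others with the largest gains. Eif4g2, a translation initiation factor, had 73, 67, 53 and 97 intron tags for 2571, 1755, 1692 and 2818 exon tags, against 42 and 45 for 533 and 341 after shearing (-1.64, SE 0.40, adjusted p = 0.012), with 41.4% GC in introns and 41.9% in exons. Eef1a1 (-2.31), Hist2h2bb (-2.03) and Klhl24 (-1.65) also fell. Without the sheared library of Nijmegen 203 genes passed, and without hydrolysed FH2 of Vienna-IMP, FH1 of Nijmegen or FH2 of Nijmegen 661, 565 and 706 did.

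The difference between the methods in FH was compared with that in the 8 CCE libraries by an interaction term over all 14 RiboMinus libraries. It passed in 27 of 12816 genes (0.211%), with 930 at an unadjusted p under 0.05, and across these genes, which are not replicates, the differences in FH and in CCE had r = 0.679. Of the 27 genes 17 had no tag in any CCE library, such as Sln, Crygb, Hes5 and S100a14, so that only FH could show a difference. Opposite signs beyond 0.5 were seen in 3 of the 27. SNORD112, a small nucleolar RNA gene, had -3.17 in FH and 3.26 in CCE, with RPKM of 6.14, 0, 0 and 0 against 13.4 and 14.1 in FH, where each value above 0 rests on 1 tag. Nt5c2 had -1.16 in FH and 0.52 in CCE, and Cecr6, annotated as a pseudogene, -1.70 and 0.63. Shfm1 (2.98 in FH and 2.54 in CCE) and Magoh (2.90 and 1.85) rose in FH, and their interaction did not pass.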

How the data were processed

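The authors made cDNA from rRNA-depleted RNA, sequenced it, aligned the tags with Bowtie to mm9 and deposited lists of uniquely mapped tags (chromosome, start, end, strand) with no other value such as a count. The version of Bowtie was not given in the sources used here. The depth was 920424 to 2188956 tags per library.

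From these lists, tags whose midpoint fell in the merged exons of a GENCODE M1 gene were counted and expressed as RPKM. The first base of a tag lay 1 base apart between the locations, which was corrected before start sites were read from the mm9 genome. Genes with a mean RPKM over 3 in either group were tested on log2(RPKM + 1), a scale that understates changes of low genes, with limma 3.58.1 (trend) in R 4.3.3, Benjamini-Hochberg adjustment and a threshold of 0.05. Each adjusted p is from limma. Ratios of 3′ UTR to coding tags (at least 50 and 100 tags over all libraries) and of intron to exon tags (at least 100 each) were tested likewise, with 1 added to each count. Single values per library were compared with an exact two-sided permutation test. The fits were tested on simulated data, where unchanged genes made up a larger share of the calls than the threshold allows. Removal of a smooth function of exon GC per library was chosen after seeing the data.

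Genes named were the 10 protein-coding and 5 non-coding genes with the largest difference in each direction (mean of at least 20 tags, adjusted p under 0.05, no overlap), 5 in each direction for each ratio, the 2 most abundant members of each list, the 3 with most tags per length class, and Airn, Igf2r and Cryaa. Others were named after their values were seen. The members and the lists were chosen with earlier results of these data known. Extra lanes, a combined sample and Ribo-Zero libraries were not used here. Of the genes the rule names, 2 are not reported here.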

Additional observations from a re-analysis of the deposited data

Results flagged for a closer look

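Among the 4 hydrolysed libraries, 1 library stood apart from the other 3 in 6 of 132 quantities examined, and chance gives about 1 in 20. Hydrolysed FH1 of Nijmegen was the library that stood apart in 4 of them. It had 1597887 unique tags and 1295680 distinct start positions, the lowest of the group. Its coding tags lay in stretches of lower GC content, with 56.3% over the 200 bases from the tag start against 57.7 to 58.0% in the other hydrolysed libraries. Exons of lincRNA genes held 6756 RPM (tags per 1000000 unique tags), against 7677 to 7808 in the others.

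The predicted gene Gm11175, which lies wholly within another gene, had an RPKM of 109.6 in hydrolysed FH2 of Nijmegen and 80.8 to 85.3 in the other hydrolysed libraries, against 304 and 538 after shearing. The pseudogene Gm12563 had 2481 in hydrolysed FH2 of Vienna-IMP, against 1178 to 1381 in the other hydrolysed libraries and 1124 and 501 after shearing.

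The difference between hydrolysis and shearing was not the same in FH and CCE in 27 genes by the interaction term. They included Sln, whose difference was larger in FH by 2.59 on the log2 scale, and S100a14, larger by 2.51. Neither gene had a tag in any CCE library, so the interaction restates the difference in FH.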

How the results depend on the processing

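Among the shares by annotation, the 3′ UTR and coding densities, the start composition and the GC content of tags, the share of tags outside genes and the coding density of mRNAs over 8 kb turned direction under an alternative. The other values per library were not recomputed. With repeated positions counted once, tags outside genes were 1.35 percentage points more frequent after hydrolysis, against -6.13 with all tags. The last 20% over the first 20% of coding exons in mRNAs over 8 kb, which differed by 0.0002 between the methods, differed by -0.0330 among genes with a mean RPKM over 10 and by -0.0178 to 0.0148 when 1 library was left out. The number of genes that passed depended on most choices, though little on the pseudocount (1273 with 0.25 and 1366 with 3). Against 1352 it was 30 among 1-round libraries alone, 3 with the 2-round hydrolysed libraries alone and 39 with the rounds of depletion as a covariate, values that rest on the labels FH1 and FH2. Within Vienna-IMP and within Nijmegen, with 2 libraries against 1, it was 0 and 0 in limma, with 1700 and 2808 genes at an unadjusted p under 0.05. It was 104 with no filter on low genes, 2359 with a mean of at least 20 tags, 2747 with that filter and scaling to exon tags of protein-coding genes, 2085 in coding exons only (998 higher and 1087 lower) and 2219 with repeated positions counted once (761 higher and 1458 lower). It was 110 with the GC function removed and 63 with the location as a replicate block in addition, and 89 to 971 when 1 library was left out. With an estimated correlation within a preparation, which came out at -0.639, it was 6415. That count also rests on the labels FH1 and FH2. With a negative estimate it is not to be read as corrected for shared preparations. The 3′ UTR ratio gave 520 to 1227 genes and the intron ratio 203 to 1504 when 1 library was left out, against 1130 and 1096. Of the 30 genes named by size, 30 passed with the location as a replicate block, 28 in voom, 12 with the GC function removed, 3 with the covariate and 0 among the 1-round libraries. The cause of these changes was not tested. Among the named genes 354 results fell short of the threshold under an alternative, 90 newly passed it and no called value changed sign, but 48 values that had not passed did. These included Hbb-y (-0.41) and Lgals1 (-0.41) with repeated positions counted once, and Scarna2 (0.59), Cyc1 (0.44), Col2a1 (0.56), Lhx2 (0.24) and Zfp428 (0.66) with the GC function removed. FH1 and FH2 of the hydrolysed libraries share numbers between locations. Deviations of these libraries from their common mean have a negative r on average by construction. The r was lowest for libraries with the same number (-0.584 and -0.528), against -0.135 to -0.326 for those of different numbers, so the numbers were not used as pairs. With the location as a replicate block 983 genes passed (582 higher and 401 lower).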

Other observations

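Markers of other cells of the head, taken from the list used to check the tissue, differed gene by gene as well. Among those of neural progenitors, the transcription factor Sox2 had RPKM of 22.9, 24.5, 17.3 and 24.0 after hydrolysis and 41.6 and 47.3 after shearing, and it fell (log2 difference -0.98, adjusted p = 0.045 in limma, 52.1% GC). Hes5, an effector of Notch signalling, also fell (-1.48, adjusted p = 0.027, 63.1% GC). Fabp7, a fatty acid binding protein of radial glia, had 6.05, 11.0, 19.5 and 7.50 against 2.48 and 4.35 and did not pass (1.35, adjusted p = 0.068), although its groups did not overlap, as in 24.0% of all genes tested in that direction. The intermediate filament gene Nes did not pass (-0.44, adjusted p = 0.28). The markers of blood vessels Cdh5, Kdr and Pecam1 (0.47, 0.59 and -0.05) and the macrophage receptor Csf1r (0.36) did not pass either. Sox9, a factor of cartilage, had 17.0, 22.2, 12.9 and 15.5 against 32.5 and 31.3 and did not pass (-0.90, adjusted p = 0.059).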
